A study of Homo sapiens with 9 samples.

Results

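The NOTCH receptors and their target genes were examined in MOLT4. This established cell line comes from a human leukemia of T-cell precursors (T-cell acute lymphoblastic leukemia, T-ALL). The set held 10 genes chosen by symbol: the receptors NOTCH1, NOTCH2 and NOTCH3, the DNA-binding factor RBPJ, and the targets HES1, HES4, HEY1, DTX1, NRARP and IL7R. All 10 had a row among the 23621 gene rows of the deposited table. Polyadenylated RNA was sequenced after 6 h in 9 libraries, 3 titled MI-389, 3 titled sunitinib and 3 of the vehicle, 0.1% DMSO. Sunitinib is a kinase inhibitor, and the study describes MI-389 as a conjugate carrying a phthalimide, a group that recruits the ubiquitin ligase receptor cereblon. GEO's fields contradict each other for every treated library. The source field of the libraries titled MI-389 names sunitinib at 1 µM, and that of the libraries titled sunitinib names MI-389 at 0.1 µM. Groups follow the titles, which the table's column names share, and if the source field is right each statement on one compound belongs to the other. Doses were therefore not matched, and differences between the treated groups are differences of compound and dose together. No source used here says that replicates were separate cultures, so p-values measure the spread between these libraries, which may be technical. All cells came from 1 line, and the libraries hold transcripts, not cleaved receptor protein.

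NOTCH receptors are cut after a neighbouring cell's ligand binds, first by an ADAM protease and then by gamma-secretase. The freed intracellular domain joins RBPJ and a Mastermind-like coactivator on DNA and turns on targets such as the HES and HEY repressors. In T-cell precursors NOTCH1 drives commitment to the T lineage, and activating NOTCH1 mutations are frequent in T-ALL, MOLT4 among the lines known to carry them. DTX1 encodes Deltex, and NRARP a small protein that binds the RBPJ complex and dampens it. IL7R encodes the interleukin-7 receptor alpha chain, a NOTCH target in T-cell precursors.

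The promoters of HES1 and HES4 are shown because RBPJ is known to act through paired sites before HES1 and because both transcripts moved in these libraries. The windows run from 250 bases before to 50 after the annotated start and come from RefSeq, build GRCh38.p14, in the direction of the gene. HES1 lies at chr3:194135898-194136197 on the plus strand and HES4 at chr1:1000048-1000347 on the minus strand. Capitals mark matches to the RBPJ motif, searched on both strands as GTGGGAA, as the variant GTGAGAA and as a further variant, GTGTGAA.
HES1: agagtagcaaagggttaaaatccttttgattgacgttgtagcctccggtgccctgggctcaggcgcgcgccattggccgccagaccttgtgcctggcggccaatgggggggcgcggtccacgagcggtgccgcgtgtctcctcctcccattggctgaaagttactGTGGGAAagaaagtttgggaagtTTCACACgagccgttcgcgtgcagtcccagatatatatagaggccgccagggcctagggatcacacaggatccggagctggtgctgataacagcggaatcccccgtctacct
HES4: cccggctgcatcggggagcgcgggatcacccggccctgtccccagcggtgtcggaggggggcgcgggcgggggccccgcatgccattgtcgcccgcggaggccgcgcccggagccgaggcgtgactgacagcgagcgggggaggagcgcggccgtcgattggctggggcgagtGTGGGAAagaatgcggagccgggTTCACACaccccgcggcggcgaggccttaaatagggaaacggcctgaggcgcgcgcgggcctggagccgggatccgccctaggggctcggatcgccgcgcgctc
Each window held GTGGGAA and, 16 bases further on, GTGTGAA on the opposite strand, so that the matches faced each other. In HES1 the matches began 85 and 62 bases before the start, and in HES4 77 and 54 bases before it. The form GTGTGAA was added after the sequences were seen.

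Of 35116 windows in the RefSeq table, 10.4% held GTGGGAA or GTGAGAA and 2.999% held GTGTGAA. A facing pair, one of the first forms followed within 30 bases by GTGTGAA on the other strand, was found in 9 windows. Those of HES1 and HES4 were the 2 with 16 bases between. Of the other 7 windows, 3 belonged to genes with a row in the deposited table, none above 0.211 FPKM in any library. The pair was defined after the HES1 and HES4 windows were seen and copies their arrangement. Facing pairs of other forms were not counted, so these counts do not show that paired sites are particular to HES1 and HES4. Windows were found for 8 of the 10 genes. RBPJ, with 5 windows, held GTGGGAA at 2 places in 1 of them, and IL7R held the last form at 1 place. None of the 3 forms was found in the windows of NOTCH1, NOTCH2, NOTCH3 and NRARP. A match is a string of letters and does not show that RBPJ binds there.

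**Figure D1:**
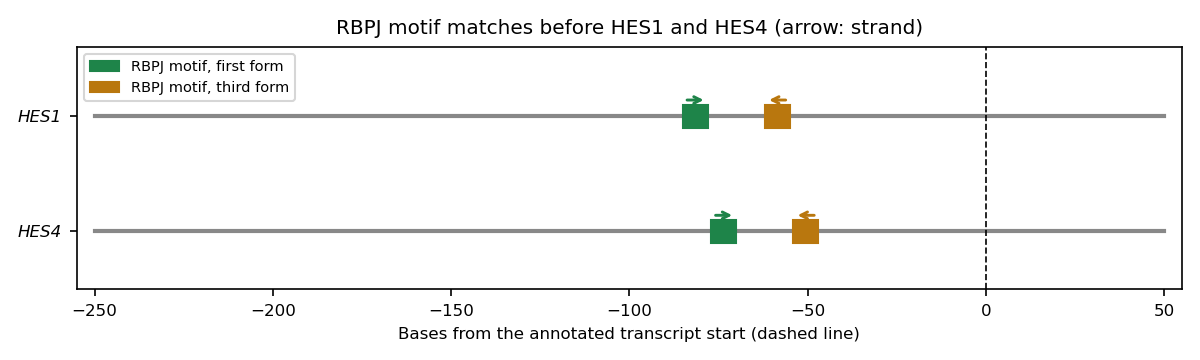
Positions of the motif matches in the RefSeq windows of HES1 and HES4, in bases from the annotated transcript start (dashed line). Boxes are matches, arrows give the strand, and in both genes the pair faces inward with 16 bases between, with matches that begin 85 and 62 bases before the start in HES1 and 77 and 54 in HES4.

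Values are FPKM, fragments counted per length of transcript and per size of library, as normalized by the authors, who added spike-in RNA by cell number. Genes averaging 1 FPKM or more over the 9 libraries were tested with limma, 12301 in all, and a gene was called at a Benjamini-Hochberg adjusted p under 0.05. The total depth of a library cannot be read from FPKM. Steps between low values would put the libraries titled MI-389 at about 1.39 times and those titled sunitinib at about 1.33 times the depth of DMSO, from 79 and 94 genes. That holds only if a step is a single fragment and the authors' scaling did not change it, which was not tested. All 10 T-lineage marker genes examined, such as CD7, CD3E and LCK, averaged at least 1 FPKM. None of 5 myeloid and 2 of 5 stromal and epithelial markers (PECAM1 and KRT8) did, and the defining markers MS4A1, PAX5 and EPCAM averaged at most 0.120 FPKM in any group. The B-cell genes CD79A and CD79B did reach 1 FPKM, and CD79A averaged 8.50 FPKM in libraries titled MI-389, 6.66 in those titled sunitinib and 9.07 in DMSO. Their part in the results was not tested, nor was that of depth. Leaving out short non-coding RNAs, libraries of a group correlated across genes at r of 0.9953 or more. Libraries of different groups correlated at r of 0.9711 to 0.9938, so r was high between any of these libraries.

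In vehicle-treated cells the receptor transcripts were led by NOTCH1. Its mean of 116 ± 12.8 FPKM (SD, n = 3) lay above 85.4% of the tested genes, against 13.8 ± 1.42 for NOTCH2 and 4.77 ± 0.833 for NOTCH3. RBPJ, at 57.0 ± 3.46 FPKM, and HES1, at 56.7 ± 4.28 FPKM, came next after NOTCH1 and overlapped. DTX1 followed at 31.6 ± 3.82 FPKM, HES4 stood at 2.21 ± 0.767 and IL7R at 0.979 ± 0.215 FPKM. NRARP and HEY1, a relative of the HES repressors, stayed at or below 0.255 FPKM in all 9 libraries, near the floor, the lowest value found in each library (0.0924 to 0.104 FPKM), and were not tested. Apart from RBPJ and HES1, neighbours in the DMSO order did not overlap. In the libraries titled MI-389 the order changed at its head, where HES1 stood above NOTCH1 without overlap, and HES4 stood above NOTCH3. In the libraries titled sunitinib HES1 stood below RBPJ without overlap, and otherwise the 8 genes above the floor kept the order of DMSO.

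Against DMSO the 3 receptors fell with MI-389 while HES1, HES4 and DTX1 rose. With sunitinib HES1 and DTX1 fell and no receptor passed the test. Between MI-389 and DMSO 3 of the 10 genes were higher, 3 were lower, 2 were not called and 2 were not tested, where 56.7% of all tested genes were called (28.5% higher, 28.3% lower). The split of all genes, 3502 higher and 3477 lower, was 3222 and 4956 with median centring and 3454 and 3421 after rescaling to spike-in RNA. Between sunitinib and DMSO none were higher, 2 were lower and 6 were not called, where 19.3% of all tested genes were called (2.37% higher, 16.9% lower). That split of all genes, 291 higher and 2079 lower, was 1270 and 1866 with median centring, 1696 and 1981 with quantile normalization and 1852 and 1962 with cyclic loess. Rescaling to spike-in RNA gave 266 higher and 1959 lower. Libraries of the compared groups did not overlap in 6 of the 8 tested genes for MI-389 against DMSO and in 3 of 8 for sunitinib against DMSO, where 60.2% and 35.2% of all tested genes did not. Median centring, quantile normalization and cyclic loess each added a higher NOTCH3 to the sunitinib comparison, so the split was then 1 higher and 2 lower. After rescaling to spike-in RNA none was higher and 2 were lower. The comparisons share the DMSO libraries. In a bulk sample fewer cells with a transcript and less transcript per cell cannot be told apart.

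**Figure D2:**
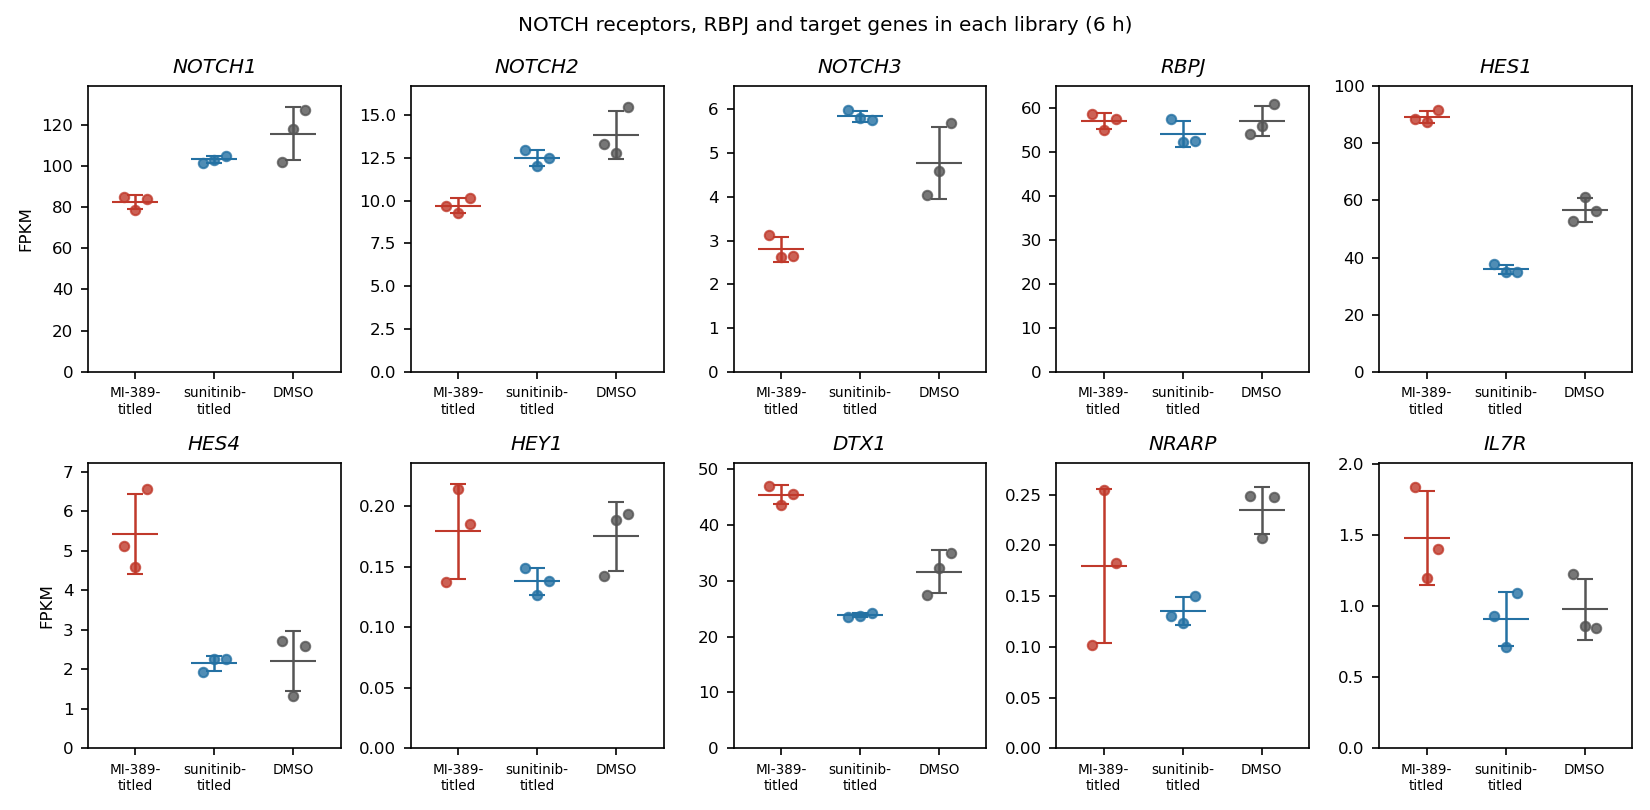
FPKM of the 10 genes in each library (points, 1 per library), with group means and SD (horizontal line and bars, n = 3), for libraries titled MI-389, libraries titled sunitinib and DMSO. Axes start at 0 and differ between genes. HES1 and DTX1 separate the 3 groups without overlap, a pattern not counted over all tested genes, and HEY1 and NRARP stay at or below 0.255 FPKM.

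NOTCH1 stood at 85.0, 78.6 and 83.8 FPKM in the libraries titled MI-389, at 101.5, 103 and 105 FPKM in those titled sunitinib, and at 102, 118 and 127 FPKM in DMSO. The libraries titled MI-389 lay below all others, and DMSO replicate 1 lay among the libraries titled sunitinib. The MI-389 mean was 0.713 times that of DMSO, a difference of −0.48 on the log2(FPKM + 1) scale (95% interval −0.65 to −0.31, limma adjusted p = 0.000518). Between sunitinib and DMSO the difference of −0.16 did not pass (95% interval −0.33 to 0.01, limma adjusted p = 0.17). It passed at −0.25 without DMSO replicate 1 (limma adjusted p = 0.00547).

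NOTCH2, a paralog of NOTCH1, stood at 9.69, 9.26 and 10.1 FPKM in the libraries titled MI-389, at 13.0, 12.0 and 12.5 FPKM in those titled sunitinib, and at 13.3, 12.7 and 15.4 FPKM in DMSO. The libraries titled MI-389 were the lowest. The log2 difference was −0.47 for MI-389 against DMSO (95% interval −0.64 to −0.30, limma adjusted p = 0.000554) and −0.13 for sunitinib against DMSO (95% interval −0.30 to 0.03, adjusted p = 0.24). NOTCH2NL, a partial duplicate of NOTCH2 that was looked up after the values were seen, went the other way. It averaged 8.50 ± 0.222 FPKM in libraries titled MI-389 and 4.88 ± 1.03 FPKM in DMSO (limma log2 difference 0.71, adjusted p = 0.000709). Reads from their near-identical stretches could have been assigned to either gene, and both values are uncertain for that reason.

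NOTCH3, a receptor that is itself a target of NOTCH1 signalling in T-ALL, stood at 3.13, 2.61 and 2.66 FPKM in the libraries titled MI-389. It stood at 5.99, 5.80 and 5.74 FPKM in those titled sunitinib, and at 4.04, 4.59 and 5.68 FPKM in DMSO. All libraries titled MI-389 were below, and all titled sunitinib above, the DMSO range. The MI-389 difference was −0.60 on the log2 scale (95% interval −0.84 to −0.35, limma adjusted p = 0.00127). The sunitinib difference of 0.26 did not pass (95% interval 0.01 to 0.50, limma adjusted p = 0.13). It did pass with median centring (0.34, adjusted p = 0.0116), quantile normalization (0.32, 0.0297), cyclic loess (0.32, 0.0250) and without DMSO replicate 3 (0.37, 0.0374).

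RBPJ, the factor through which all the receptors act on DNA, passed in neither comparison with DMSO. It stood at 58.6, 54.96 and 57.6 FPKM in libraries titled MI-389, at 57.4, 52.3 and 52.6 FPKM in those titled sunitinib, and at 54.2, 56.0 and 60.9 FPKM in DMSO, and all 3 groups overlapped. The log2 difference was 0.0022 for MI-389 (95% interval −0.13 to 0.14, limma adjusted p = 0.98) and −0.07 for sunitinib (95% interval −0.21 to 0.06, adjusted p = 0.43), each against DMSO. Both changed sign with median centring and quantile normalization, as did the MI-389 difference without DMSO replicate 1 or 2 or MI-389 replicate 1 or 3 (down to −0.033). Processed pseudogenes of RBPJ exist, so its row may hold or lose reads of these copies.

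HES1, a repressor of the basic helix-loop-helix class and a much used readout of NOTCH signalling, stood at 88.5, 87.5 and 91.5 FPKM in the libraries titled MI-389. It stood at 37.7, 35.0 and 34.8 FPKM in those titled sunitinib, and at 52.7, 61.2 and 56.3 FPKM in DMSO. The 3 groups did not overlap, with DMSO between the treated groups. How many of all tested genes share that pattern was not counted. Between pairs of groups, 60.2% (MI-389 against DMSO), 35.2% (sunitinib against DMSO) and 69.4% (MI-389 against sunitinib) of all tested genes did not overlap. Against DMSO, HES1 rose 1.57-fold with MI-389 (log2 difference 0.65, 95% interval 0.51 to 0.79, limma adjusted p = 2.42e-05). With sunitinib it fell to 0.632 times the DMSO mean (log2 difference −0.65, 95% interval −0.79 to −0.51, adjusted p = 0.000683).

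HES4, a HES relative whose promoter is shown above, stood at 5.13, 4.59 and 6.56 FPKM in the libraries titled MI-389. It stood at 1.92, 2.25 and 2.27 FPKM in those titled sunitinib, and at 2.71, 1.33 and 2.59 FPKM in DMSO. The libraries titled MI-389 lay above all others, and the other groups overlapped. HES4 rose 2.45-fold with MI-389 (log2 difference 1.02, 95% interval 0.61 to 1.43, limma adjusted p = 0.00112). With sunitinib the difference was 0.00 (95% interval −0.41 to 0.41, limma adjusted p = 1.00), an interval that still holds a change as large as that of DTX1. It was −0.22 without DMSO replicate 2, the lowest library, and −0.024 and −0.028 without sunitinib replicates 2 and 3.

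DTX1, a ubiquitin ligase that binds the NOTCH intracellular domain, stood at 47.0, 43.6 and 45.5 FPKM in the libraries titled MI-389. It stood at 23.57, 23.6 and 24.2 FPKM in those titled sunitinib, and at 27.5, 32.3 and 35.0 FPKM in DMSO. As with HES1, the groups did not overlap and DMSO lay between the treated groups, a pattern whose share among all tested genes was not counted. DTX1 rose 1.44-fold with MI-389 (log2 difference 0.51, 95% interval 0.34 to 0.69, limma adjusted p = 0.000436). With sunitinib it fell to 0.753 times the DMSO mean (−0.39, 95% interval −0.57 to −0.21, adjusted p = 0.0112), against a median of −0.10 over all tested genes.

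IL7R was close to 1 FPKM, a level above that of 4.35% of the tested genes with MI-389, 1.46% with sunitinib and 1.66% in DMSO. It stood at 1.84, 1.201 and 1.404 FPKM in the libraries titled MI-389, at 0.929, 0.711 and 1.09 FPKM in those titled sunitinib, and at 1.23, 0.865 and 0.846 FPKM in DMSO. The groups titled MI-389 and DMSO overlapped. Its means with sunitinib (0.911 FPKM) and in DMSO (0.979 FPKM) were under 1 FPKM. IL7R thus met the filter only through the libraries titled MI-389 (mean 1.48 FPKM), where it was highest. Its comparisons with that group are therefore not independent of the filter. The log2 difference for MI-389 was 0.32 (95% interval −0.02 to 0.67, limma adjusted p = 0.0989) and passed only without the variance trend (adjusted p = 0.0437) among the alternatives run. NRARP ranged from 0.102 to 0.255 FPKM in the libraries titled MI-389, from 0.124 to 0.150 in those titled sunitinib and from 0.208 to 0.249 FPKM in DMSO. HEY1 ranged from 0.137 to 0.215, 0.127 to 0.149 and 0.143 to 0.194 FPKM in the same order of groups. Without a filter on low values neither gene passed in any comparison (limma adjusted p of 0.16 to 0.90), although the NRARP values of sunitinib and DMSO did not overlap. The log2(FPKM + 1) scale compresses differences at such low values.

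**Figure D3:**
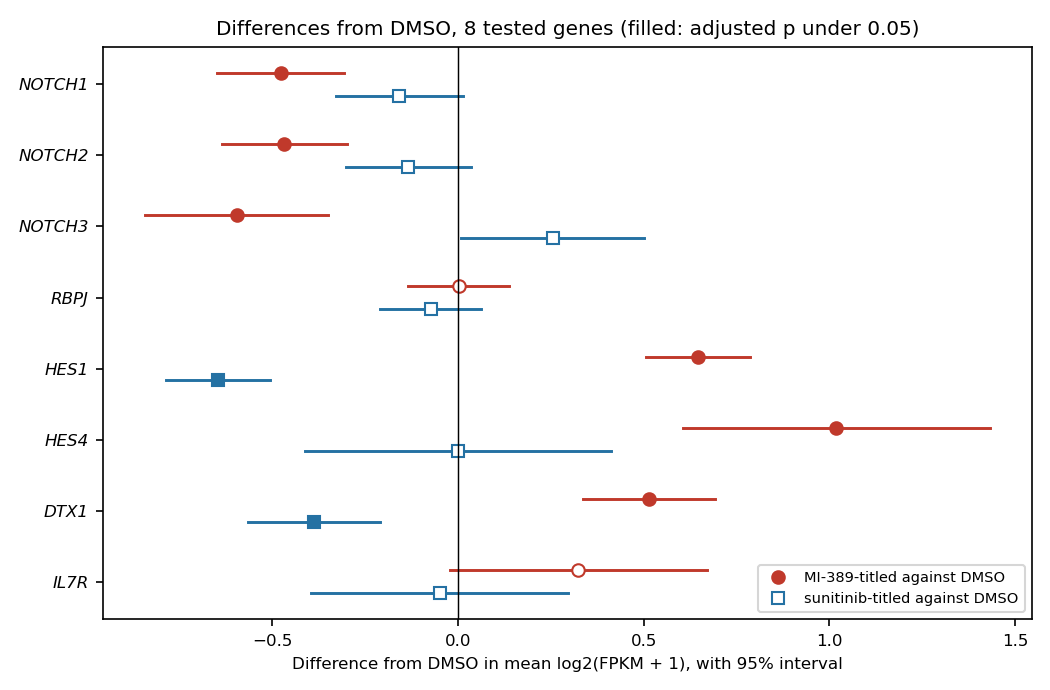
Differences from DMSO in mean log2(FPKM + 1) for the 8 tested genes (points, with 95% intervals from limma), for libraries titled MI-389 (circles) and titled sunitinib (squares), filled where the adjusted p was under 0.05. The 3 receptors lie below 0 for MI-389, between −0.60 and −0.47, while HES1, HES4 and DTX1 lie above it, and HES1 and DTX1 lie below 0 for sunitinib.

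Set against each other, the treated groups differed in 6 of the 10 genes, 3 higher and 3 lower with MI-389, where 56.3% of all tested genes were called (36% higher, 20.3% lower). The 4427 higher and 2500 lower of all genes became 3279 and 4863 with median centring, 3791 and 4426 with quantile normalization and 4075 and 4040 with cyclic loess. Spike-in rescaling gave 4439 and 2457. Libraries did not overlap in 7 of the 8 tested genes, where 69.4% of all tested genes did not. HES1 was 2.49-fold higher in libraries titled MI-389 than in those titled sunitinib (log2 difference 1.29, 95% interval 1.15 to 1.43, limma adjusted p = 4.32e-07). HES4 was 2.52-fold (adjusted p = 0.00112) and DTX1 1.91-fold higher (adjusted p = 1.36e-05). NOTCH3 stood at 0.479 times its level in libraries titled sunitinib (log2 difference −0.85, limma adjusted p = 0.000139), NOTCH1 at 0.799 times (adjusted p = 0.00536) and NOTCH2 at 0.777 times (adjusted p = 0.00405). IL7R did not pass, with a difference of 0.37 (limma adjusted p = 0.0626), nor did RBPJ, at 0.08 (adjusted p = 0.32). IL7R passed under 6 of 19 alternatives, among them without DMSO replicate 1 (limma adjusted p = 0.0491) and without MI-389 replicate 2 (0.0456). It had met the filter on low values only through the libraries titled MI-389, the group where it was highest. RBPJ turned to −0.09 and passed with median centring (limma adjusted p = 0.0288).

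Ratios within a library do not change when a whole library is rescaled. They are quotients of the FPKM given above, so their directions follow from those values and add no separate support. Of the targets in the set, only HES1 and DTX1 were divided by NOTCH1. HES1 per unit of NOTCH1 was 1.04, 1.11 and 1.09 with MI-389, 0.372, 0.339 and 0.332 with sunitinib, and 0.517, 0.518 and 0.443 in DMSO. DTX1 per NOTCH1 averaged 0.550 ± 0.00646 with MI-389, 0.231 ± 0.00153 with sunitinib and 0.273 ± 0.00296 in DMSO (SD, n = 3 each), again without overlap. NOTCH3 per NOTCH1 averaged 0.0339 ± 0.00265 with MI-389, 0.0567 ± 0.00215 with sunitinib and 0.0411 ± 0.00313 in DMSO. NOTCH2 per NOTCH1 kept to 0.108 to 0.130 in all 9 libraries, and its groups overlapped. These ratios are given as descriptions, without a test.

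**Figure D4:**
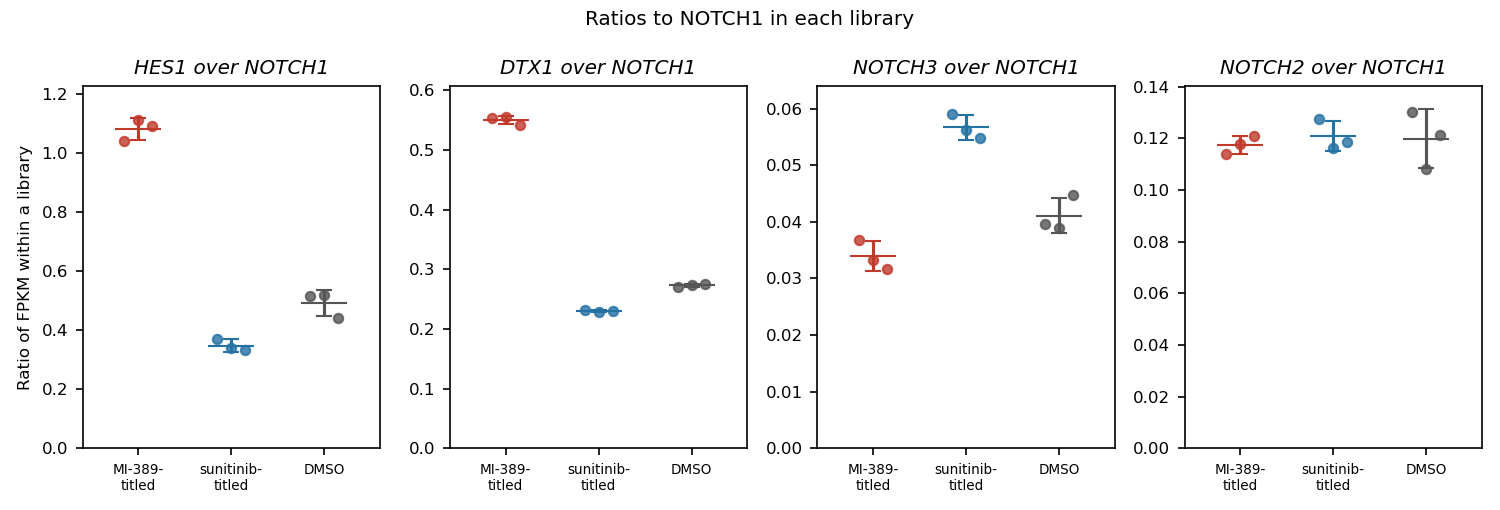
FPKM of HES1, DTX1, NOTCH3 and NOTCH2 divided by that of NOTCH1 in the same library (points), with group means and SD (n = 3). HES1 per NOTCH1 lies at 1.04 to 1.11 in libraries titled MI-389, 0.332 to 0.372 in those titled sunitinib and 0.443 to 0.518 in DMSO, whereas NOTCH2 per NOTCH1 overlaps between all groups.

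Over the 9 libraries, among 9898 other genes averaging 5 FPKM or more, the pattern of NOTCH1 was most like those of MAFG (Pearson r = 0.998), THOP1 (0.995) and POLR2H (0.994). That of HES1 was most like TRMT61A (r = 0.992), a tRNA methyltransferase subunit, GNL2 (0.992) and RPF2 (0.991), the last pair being ribosome assembly factors. GNL2, for example, averaged 110.4 FPKM with MI-389, 68.9 with sunitinib and 87.8 in DMSO. That of the scarce IL7R was most like ARMCX5-GPRASP2 (r = 0.936), among 9899 genes. The 9 points fall into 3 groups of 3, and the correlations are descriptions only.

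The wider pathway was followed in 82 further genes, of which 63 were tested. With MI-389, 17 rose and 18 fell against DMSO, a share close to the 56.7% of all tested genes, with a median log2 difference of 0.04 against 0.00 (−0.0021) over all tested genes. With sunitinib 16 fell and none rose, where 19.3% of all genes were called and the all-gene median was −0.10 (list median −0.10). That split depended on scaling: median centring gave 8 higher and 16 lower, quantile normalization 9 and 13, and cyclic loess 10 and 13. Rescaling to spike-in RNA, at 1 higher and 15 lower, stayed close to the deposited split. The 16 falls were 5 and 6 without sunitinib replicates 2 and 3, 8 (beside 1 rise) without DMSO replicate 3 and 10 without MI-389 replicate 3. All 6 ligand genes, JAG1 and DLL3 among them, and the receptor NOTCH4 averaged under 1 FPKM and were not tested. JAG1 averaged 0.224 FPKM with MI-389, 0.206 with sunitinib and 0.261 in DMSO, and DLL3 0.271, 0.451 and 0.531 FPKM in the same order.

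Among the 9 proteases that mature and cut the receptors, 2 rose and 2 fell with MI-389. Over all tested genes, 28.5% rose and 28.3% fell with MI-389, and 2.37% rose and 16.9% fell with sunitinib. NCSTN, the gamma-secretase subunit nicastrin, rose 1.18-fold (limma adjusted p = 0.0135). APH1B, another subunit, fell to 0.775 times the DMSO mean (limma adjusted p = 0.00893), and ADAM10, which makes the first cut, fell to 0.872 times (adjusted p = 0.0190). ADAM10 was also the 1 protease lower with sunitinib, at 0.816 times DMSO (limma adjusted p = 0.0114). The MI-389 call was lost for NCSTN without MI-389 replicate 3 and for ADAM10 without MI-389 replicate 1 or 2, and the sunitinib call of ADAM10 without sunitinib replicate 2 or 3 (limma adjusted p of 0.0538 to 0.0596). Of 5 glycosyltransferase genes that modify the receptors none passed in either comparison with DMSO. With median centring, 2 of these were lower with MI-389 and 1 was higher with sunitinib. Quantile normalization gave 3 lower with MI-389, and cyclic loess 1 higher and 2 lower. Both gave 1 glycosyltransferase gene higher with sunitinib, and spike-in rescaling gave none in either comparison. For the proteases, 3 were higher and 1 was lower with sunitinib under each of median centring, quantile normalization and cyclic loess. After spike-in rescaling none was higher and 1 was lower.

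Of 6 coactivators 3 rose and 1 fell with MI-389, where 28.5% of all tested genes rose and 28.3% fell. EP300, an acetyltransferase recruited by the NOTCH complex, stood at 29.2, 24.3 and 27.2 FPKM in libraries titled MI-389, against 12.5, 12.9 and 16.8 FPKM in DMSO (1.92-fold, limma adjusted p = 7.42e-05). Its relative CREBBP rose 1.76-fold (adjusted p = 6.87e-05) and MAML1, the Mastermind-like partner of RBPJ, 1.21-fold (limma adjusted p = 0.0127, and 0.0525 without MI-389 replicate 1). None of the 6 passed with sunitinib, where 2.37% of all tested genes rose and 16.9% fell. Of 11 corepressors 3 rose and 6 fell with MI-389, counts that held under each scaling tried. CIR1, a corepressor that binds RBPJ, rose 1.52-fold (limma adjusted p = 2.13e-05). HDAC1, a histone deacetylase, fell to 0.638 times (adjusted p = 8.14e-05) and SAP30, a partner of HDAC1, to 0.739 times DMSO (adjusted p = 9.23e-05). With sunitinib 4 corepressors fell, among them L3MBTL3, which binds RBPJ, to 0.764 times DMSO (limma adjusted p = 0.0267), SAP30 to 0.836 times (0.0107) and TLE3, a Groucho-family corepressor, to 0.817 times (0.0323). These 3 calls did not hold without sunitinib replicate 2 (adjusted p of 0.0524 to 0.0995), those of L3MBTL3 and TLE3 also not without sunitinib replicate 3 or DMSO replicate 3, and that of TLE3 not without sunitinib replicate 1, DMSO replicate 2 or MI-389 replicate 3 either. The SAP30 difference with sunitinib, −0.26, was −0.13 with cyclic loess (limma adjusted p = 0.0691) and −0.12 with quantile normalization (0.0910). Cyclic loess also gave 2 corepressors higher and 3 lower with sunitinib, whereas spike-in rescaling gave none higher and 4 lower.

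Of 15 genes of receptor turnover and trafficking 5 rose and 3 fell with MI-389, where 28.5% of all tested genes rose and 28.3% fell. ITCH, a ligase that ubiquitinates NOTCH, and DTX2, a relative of DTX1, both rose 1.44-fold (limma adjusted p = 9.49e-05 and 0.000280). NUMBL, of the NUMB family of NOTCH antagonists, fell to 0.528 times DMSO (limma adjusted p = 0.000455). With sunitinib 3 fell, where 16.9% of all tested genes did. These were the ligases NEDD4 (0.834 times DMSO, limma adjusted p = 0.0191) and DTX3L (0.840 times, 0.0229) and the deubiquitinase USP10 (0.852 times, 0.0336). None of these 3 calls held without sunitinib replicate 2 or 3 (adjusted p of 0.0758 to 0.13), those of DTX3L and USP10 not without DMSO replicate 3, and that of USP10 not without DMSO replicate 2 or MI-389 replicate 3. The USP10 difference of −0.23 was −0.10 with cyclic loess (limma adjusted p = 0.0899) and −0.096 with quantile normalization (0.11). Both of these scalings gave 2 higher and 2 lower of the 15 genes with sunitinib, whereas spike-in rescaling gave none higher and 3 lower. The one other HES relative above 1 FPKM, HES6, went the other way from HES1 and HES4 with MI-389. It stood at 4.25, 3.94 and 5.29 FPKM with MI-389, at 8.03, 7.50 and 8.23 FPKM with sunitinib, and at 7.98, 6.37 and 7.83 FPKM in DMSO. It fell with MI-389 (limma log2 difference −0.61, adjusted p = 0.00101), and HES6 is known to oppose HES1.

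Of 16 further genes listed as NOTCH targets in T cells or T-ALL, 4 rose and 5 fell with MI-389, and 8 fell with sunitinib. Across all tested genes, 28.5% rose and 28.3% fell with MI-389, and 2.37% rose and 16.9% fell with sunitinib. Quantile normalization and cyclic loess each gave 8 higher and 5 lower with MI-389, and 2 higher and 7 lower with sunitinib, where median centring gave 2 and 8. Spike-in rescaling gave 4 higher and 5 lower with MI-389, and 1 higher and 7 lower with sunitinib. CR2, a complement receptor, rose 1.46-fold with MI-389 (limma adjusted p = 0.000148). TRIB2, a pseudokinase, and SKP2, a ubiquitin ligase subunit, fell to 0.657 and 0.675 times DMSO (limma adjusted p = 0.000195 and 0.000290). With sunitinib CCND3, a D-type cyclin, fell to 0.560 times DMSO (limma adjusted p = 0.000749) and CD44, an adhesion receptor, to 0.689 times (adjusted p = 0.00304). GATA3, a T-lineage transcription factor, was ordered like HES1 and DTX1, at 42.5 ± 1.23 FPKM with MI-389, 23.6 ± 1.82 with sunitinib and 30.5 ± 2.48 FPKM in DMSO. MYC, at 431 ± 13.2, 236 ± 1.86 and 331 ± 27.4 FPKM in the same order of groups, was too. How many of all tested genes were ordered in that way was not counted. PTCRA, the pre-T-cell receptor alpha chain, averaged 24.7 ± 2.70, 29.5 ± 1.12 and 24.1 ± 2.95 FPKM and passed in no comparison (limma adjusted p of 0.0508 to 0.76). It passed under 6 alternatives for sunitinib against DMSO, among them without DMSO replicate 2 (0.0303) or MI-389 replicate 2 (0.0487), and under 10 between the treated groups. There the difference of −0.25 was −0.41 to −0.43 with cyclic loess, median centring or quantile normalization (limma adjusted p of 0.00431 to 0.00526), and it also passed without MI-389 replicate 1 or DMSO replicate 2 or 3 (0.0259 to 0.0486). With MI-389 the listed targets held rises and falls side by side under each scaling.

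Between the treated groups 25 of the 63 tested genes of the wider list were higher and 10 lower with MI-389. Over all tested genes, 36% were higher and 20.3% lower. The list's median log2 difference was 0.14, against 0.08 over all tested genes. Median centring turned the 25 higher and 10 lower to 18 and 25, and quantile normalization gave 23 and 23. Rescaling to spike-in RNA gave 26 and 11. Higher with MI-389 were EP300 (2.08-fold), MYC (1.82-fold), CREBBP (1.81-fold), GATA3 (1.80-fold) and CCND3 (1.78-fold), with limma adjusted p-values of 4.92e-06 to 5.55e-05. MAML1, CIR1, DTX2, ITCH, NEDD4 and NCSTN were also higher with MI-389 (1.22- to 1.70-fold), and HDAC1 and APH1B stood at 0.667 and 0.650 times their sunitinib levels (limma adjusted p of 2.85e-05 to 0.00552 over these 8). The call of NCSTN did not hold with median centring (adjusted p = 0.0821) or quantile normalization (0.11). KDM5A, a histone demethylase that acts with RBPJ, was 1.39-fold higher (limma adjusted p = 0.000244) and POFUT1, which adds fucose to the receptors, 1.23-fold (0.00628). RFNG, a Fringe enzyme that modifies that fucose, stood at 0.855 times (limma adjusted p = 0.00822), and HES6 at 0.567 times its sunitinib level (0.000428). ADAM17, a further receptor protease, was 1.12-fold higher (limma adjusted p = 0.0493), a call lost when any single library other than DMSO replicate 3 was left out, and one whose sign turned with median centring.

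**Figure D5:**
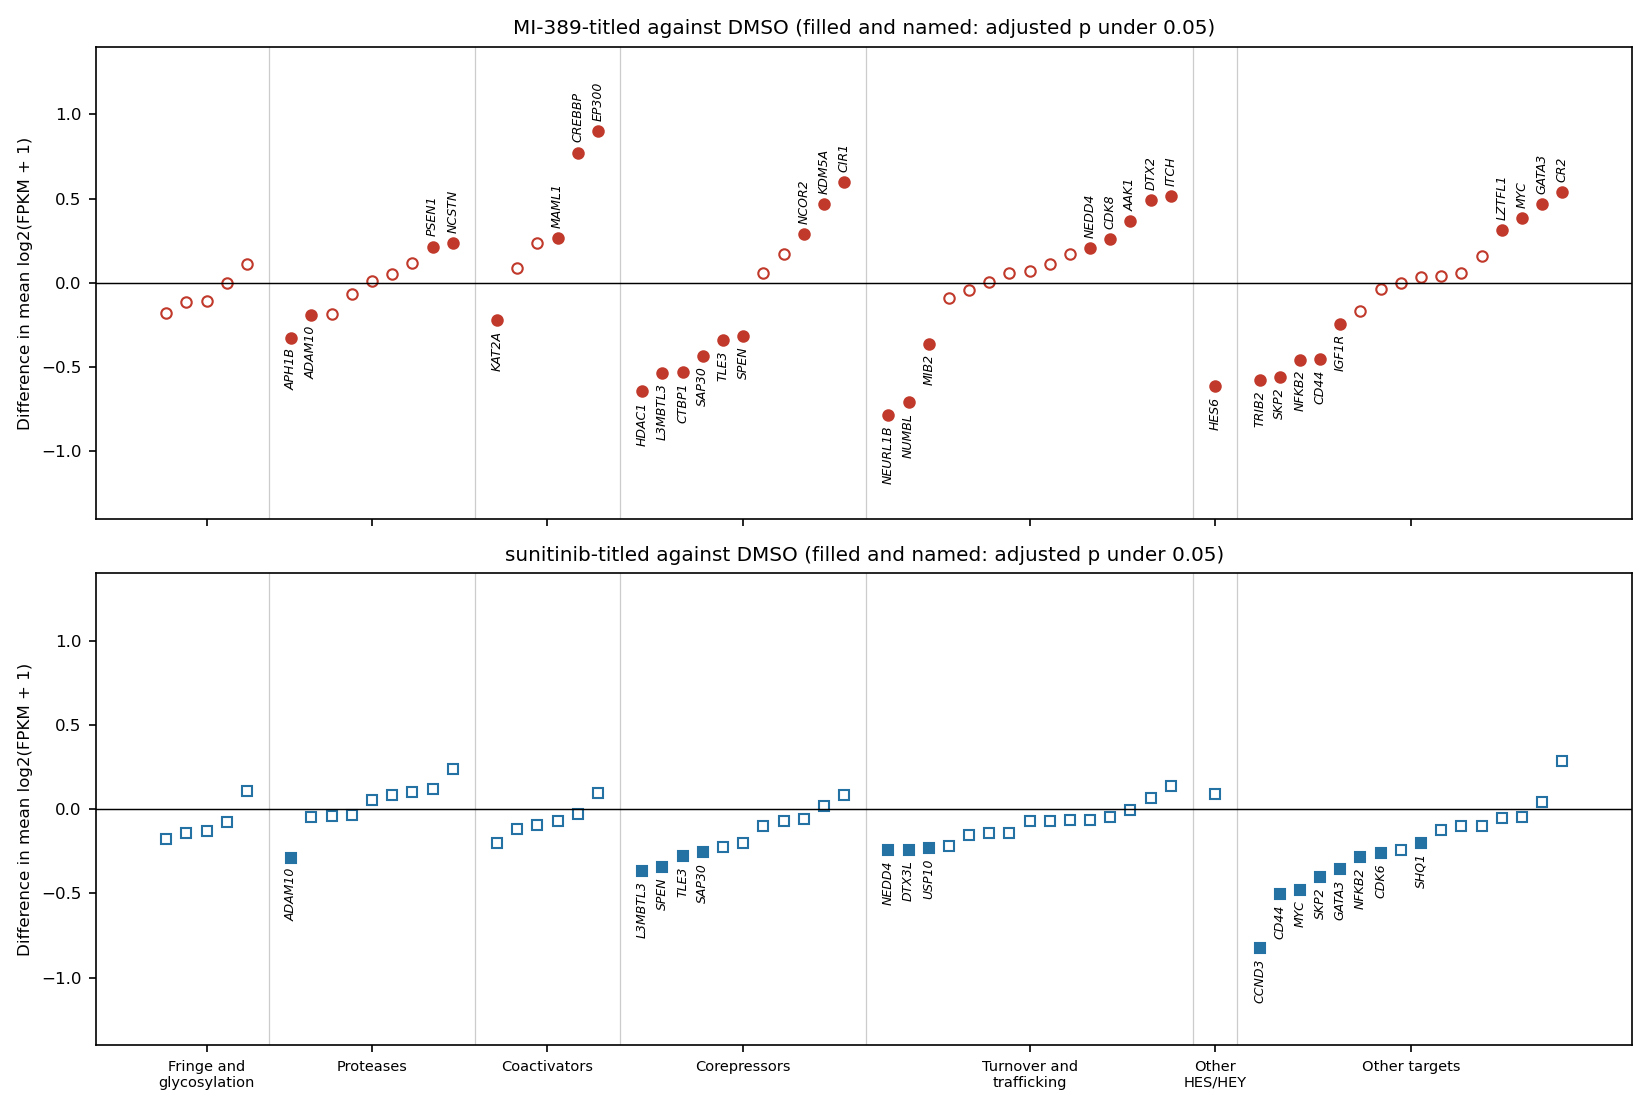
Differences from DMSO in mean log2(FPKM + 1) of the 63 tested genes of the wider pathway, by role, for libraries titled MI-389 (upper panel) and titled sunitinib (lower panel), with genes ordered by size within a role and filled and named at an adjusted p under 0.05. EP300 and CREBBP are the highest with MI-389 (0.90 and 0.77), roles hold rises and falls together, and all 16 called genes with sunitinib lie below 0 on the deposited scale.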

How the data were processed

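PolyA RNA was made into libraries with a SMARTer v4 low-input kit and spike-in RNA was added by cell number, per the labels' protocols. The kit is unstranded, and where genes overlap their reads are not separable. The submitters' processing notes name HISAT, Cufflinks 2.0.0 and the build hg19. The FPKM values are the authors' deposited values, and how libraries were scaled to each other is not given in the sources used here. Over 16 spike-in RNAs averaging 10 FPKM or more, the libraries' median log2 offsets were −0.035 to 0.056. Rescaling to these moved the all-gene median for sunitinib against DMSO from −0.0953 to −0.0949. The deposited values thus stood close to level in spike-in RNA. Genes averaging 1 FPKM or more were tested on log2(FPKM + 1), which understates changes of low genes, with limma 3.58.1 in R 4.3.3 (9 libraries, 3 groups in 1 model, variance trend, two-sided, Benjamini-Hochberg over 12301 genes). The model was also run on simulated data with independent noise and few changed genes. These data differ from that setting, so the run says nothing about the calls made here. Ratios are of mean FPKM. The members and lists were chosen with earlier results of these data known. Of the wider list, the text names, per comparison and role, up to 3 called genes with the smallest adjusted p, plus JAG1, DLL3, PTCRA and HES6. GATA3 in the comparisons with DMSO was added after its values were seen. Pattern likeness was Pearson's r on log2(FPKM + 1), short non-coding RNAs left out. RefSeq sequences are of build GRCh38.p14 and were matched by symbol. Same-numbered replicates were not paired. Alternatives were 2 pseudocounts, 2 filters, 4 scalings, other fits, crossed compound names and each library left out. Figures were drawn with matplotlib 3.10.9.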

Additional observations from a re-analysis of the deposited data

How the results depend on the processing

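The 14 called differences of the NOTCH genes (6 with MI-389 and 2 with sunitinib against DMSO, 6 between the treated groups) kept their direction and call in all 276 values recomputed under the alternatives. The count of called NOTCH genes was 4 of 5 tested with a mean of at least 5 FPKM, for MI-389 against DMSO and against sunitinib. With compound names from the source field it became 2 for MI-389 and 6 for sunitinib, because the groups exchange names. For sunitinib against DMSO the count of all called genes, 2370, became 1225 with the 6 compared libraries, 1423 without a filter, 3677 with quantile scaling, 3814 with cyclic loess and 929 to 4244 with single libraries left out (929, 995 and 1529 without sunitinib replicates 2, 3 and 1, and 1572 and 4244 without DMSO replicates 2 and 1). The wider pathway count of 16 became 8, 10, 22 and 23 under the same 4 settings and 5 to 22 with single libraries left out (5 and 6 without sunitinib replicates 2 and 3, 9 without DMSO replicate 3 and 10 without MI-389 replicate 3). Between the treated groups, the wider list's 25 higher and 10 lower became 24 and 21 with cyclic loess. Between these groups the median of all genes was 0.08 on the deposited scale, −0.0082 with cyclic loess and −0.08 with median centring. The causes were not tested.

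Against DMSO with sunitinib, HES4 was −0.0074 with a pseudocount of 5, −0.0026 after spike-in rescaling and −0.22 to 0.12 with single libraries left out; IL7R was 0.037 with median centring and −0.12 to 0.038 with single libraries left out; NOTCH2NL was −0.0024 with a pseudocount of 5 and −0.14 to 0.11 with single libraries left out. RBPJ with sunitinib was 0.013 with median centring, 0.037 with quantile scaling and 0.040 with cyclic loess. With MI-389 against DMSO, RBPJ was −0.076 with median centring, −0.010 with quantile scaling and −0.033 to 0.049 with single libraries left out, and PTCRA was −0.042, −0.050, −0.047 with cyclic loess and −0.023 to 0.13. Between the treated groups RBPJ was −0.089 with median centring, −0.047 with quantile scaling and −0.019 with cyclic loess, and ADAM17 (0.16, adjusted p = 0.0493 by limma) was −0.0056, −0.054 and −0.033.

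Deviations of same-numbered libraries correlated at −0.042 to 0.11 across genes and those of other pairs at −0.22 to 0.13. The ranges overlapped, but deviations from a group's mean cancel within the group, so this check cannot exclude a pairing. With a replicate block, 6, 2 and 7 NOTCH genes were called for MI-389 against DMSO, sunitinib against DMSO and MI-389 against sunitinib. All genes called were then 6816, 1941 and 6740, and wider pathway genes 34, 11 and 36. The block ended the sunitinib calls of TLE3 (limma adjusted p = 0.0609) and USP10 (0.0706). Precision is limited by 3 libraries a group, and for IL7R, NRARP and HEY1 by low values.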
